A study of Mus musculus with 6 samples.

Results

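The 10 genes described here encode the NF-kB transcription factors and proteins that inhibit or regulate them. The factors are Nfkb1, Nfkb2, Rel, Rela and Relb. The others are the IkB family members Nfkbia, Nfkbiz and Bcl3, and the ubiquitin-binding regulators Tnfaip3 and Tnip1. All 10 were chosen by symbol, with earlier results of these data known. Of the 41214 gene identifiers in the count files, 10 carried these symbols. RNA sequencing measured them in epidermis from skin treated with trypsin, taken from C57BL/6 mice at postnatal day 4. There were 3 libraries with the genotype ARPC4 ko, called hom in their titles, and 3 with the genotype wt. Arpc4 encodes a subunit of the Arp2/3 complex, an actin nucleator, and the study is on loss of that complex in epidermis. No source used here gives the driver of the deletion or says whether a library came from 1 animal or several. The p-values therefore measure the spread between libraries, and that spread may be technical. Replicates 1 and 2 of both genotypes carry a date in their titles and replicate 3 of both does not. The dated and the undated libraries are therefore treated as a possible batch, and differences are also given within them.

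NF-kB factors work as dimers that sit in the cytoplasm until a signal removes their inhibitor. In the canonical branch, signals from receptors for tumour necrosis factor, interleukins or microbial products activate the IkB kinase complex. Nfkbia, the IkB protein that binds Rela dimers, is then degraded, and the dimers enter the nucleus. In the non-canonical branch the kinase Map3k14 leads to processing of the Nfkb2 precursor and release of its dimers with Relb. Nfkbia, Tnfaip3 and several of the factors are themselves known targets, so the pathway feeds back on its own genes. In keratinocytes Nfkbiz and Bcl3 act in the nucleus as cofactors, and Tnfaip3, Tnip1 and Nfkbiz are known in humans for their links to psoriasis. Transcript levels do not measure the localisation or activity of these proteins, which was not assayed here.

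Promoter windows were printed for members that spanned the range of behaviour described below: Nfkbia, the most abundant, Tnfaip3 and Bcl3, the most variable, and Tnip1, the least variable. The windows run from 250 bases before to 50 bases after the annotated start (RefSeq, GRCm38.p6, minus strand in all 4 genes, written 5′ to 3′), and positions count from 0 at the start. Capitals mark matches, on either strand, to the classical kappaB consensus of 10 bases or to the shorter GGAATTTCC, which may overlap. The windows are chr12:55492598-55492897 for Nfkbia, chr10:19015361-19015660 for Tnfaip3, chr7:19822706-19823005 for Bcl3 and chr11:54962891-54963190 for Tnip1.
Nfkbia: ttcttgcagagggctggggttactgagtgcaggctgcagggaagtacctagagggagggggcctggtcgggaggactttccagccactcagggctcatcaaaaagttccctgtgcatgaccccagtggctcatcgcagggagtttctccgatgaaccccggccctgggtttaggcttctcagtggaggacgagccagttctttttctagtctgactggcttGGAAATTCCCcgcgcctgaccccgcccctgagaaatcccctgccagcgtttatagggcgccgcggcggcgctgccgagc
Tnfaip3: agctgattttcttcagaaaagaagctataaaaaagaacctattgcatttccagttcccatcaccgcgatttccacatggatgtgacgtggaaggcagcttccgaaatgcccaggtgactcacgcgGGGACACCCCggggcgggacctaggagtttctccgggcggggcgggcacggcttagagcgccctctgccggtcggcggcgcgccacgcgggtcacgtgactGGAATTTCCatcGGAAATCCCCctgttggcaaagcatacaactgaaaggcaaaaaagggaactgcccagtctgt
Bcl3: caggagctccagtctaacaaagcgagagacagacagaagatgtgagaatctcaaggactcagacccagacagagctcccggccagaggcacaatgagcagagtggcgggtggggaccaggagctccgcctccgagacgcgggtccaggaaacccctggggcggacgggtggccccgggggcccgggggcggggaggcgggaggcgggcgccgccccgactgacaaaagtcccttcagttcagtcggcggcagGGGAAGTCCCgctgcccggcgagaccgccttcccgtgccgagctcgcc
Tnip1: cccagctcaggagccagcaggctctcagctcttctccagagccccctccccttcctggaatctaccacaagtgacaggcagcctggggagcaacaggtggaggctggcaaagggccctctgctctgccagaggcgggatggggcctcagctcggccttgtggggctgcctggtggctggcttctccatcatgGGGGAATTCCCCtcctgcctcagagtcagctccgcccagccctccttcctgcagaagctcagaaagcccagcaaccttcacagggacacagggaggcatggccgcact
The consensus began at -29 in the Nfkbia window, at -125 and -12 in the Tnfaip3 window and at 2 in the Bcl3 window. In the Tnip1 window 3 overlapping matches began at -58, -57 and -56. GGAATTTCC began at -29 in the Nfkbia window, overlapping the consensus match, and at -24 in the Tnfaip3 window. The reference table held 10 windows for 7 of the members, with several starts for Nfkb2 and Tnfaip3, and 8 of the 10 windows, from 6 of the 7 genes, held the consensus. The Nfkb2 windows chr19:46305445-46305744 and chr19:46305680-46305979 overlap and share a match, at 10 in the former and -225 in the latter. The windows are therefore not independent. Among all 32851 windows of the table, 8.46% held it, and 0.317% held GGAATTTCC. The Rela window and the downstream Tnfaip3 window held neither. A match is a run of letters and not a measured binding site.

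Read depth ran from 17561294 to 20745246 counts in genes in the ko libraries and from 19532675 to 22659511 in the wt libraries. Entries listed as not uniquely aligned made up 32.4 to 40.9% of the total listed per library and were not assigned to genes. Whether these entries count reads or alignments is not given. The epidermal markers were high in all libraries, with Krt1 at 31502 to 70327 CPM (counts scaled to library size, with TMM factors) and Krt10 at 31750 to 65514 CPM. Krt2, a keratin of upper layers, was low at 0.473 to 7.39 CPM. Arpc4 itself lay at 67.5, 65.6 and 64.5 CPM in ko replicates 1 to 3, against 72.5, 82.5 and 73.1 CPM in wt replicates 1 to 3. That difference did not pass the test (log2 fold change -0.21, SE 0.10; edgeR, Benjamini-Hochberg adjusted p = 0.469), and since the deleted part of the gene is not known, it checks neither the deletion nor the protein. Xist lay at 543 and 508 CPM in ko replicates 1 and 3 and at 579 CPM in wt replicate 3, and below 0.5 CPM in the other libraries, so both groups mixed the sexes and not in equal shares.

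None of the 10 members passed the test between the genotypes, although all 10 had a higher fitted level in ko. With edgeR's quasi-likelihood test and Benjamini-Hochberg adjustment over 13704 genes, 0 of the 10 had an adjusted p under 0.05, where 0.219% of all genes tested did, all of them higher in ko. DESeq2, which called 4.25% of all genes, and limma-voom, which called 0.0%, also called 0 of the 10. At an unadjusted p under 0.05 edgeR gave 3, Nfkb1, Rela and Rel, all higher in ko. Of all genes 13.2% reached that level and 7.98% were higher at it. DESeq2 (7.86% higher) and limma-voom (7.68% higher) gave 3 members too. In 4 members, Nfkb1, Rel, Rela and Nfkbiz, the ko libraries all exceeded the wt libraries, as in 11.3% of all genes tested. The median log2 fold change (ko over wt) of the 10 was 0.52, where the median of all genes tested was 0.02 and 53.1% lay above 0. Since the members were chosen with earlier results of these data known, these shares are not independent evidence. All 10 passed the filter on low counts.

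The 3 members at an unadjusted p under 0.05 depended on single libraries and on the scaling. There were 0 without ko replicate 3, where 6.64% of all genes were higher at that level, 2 without ko replicate 1 (6.9%) and 4 without ko replicate 2 (6.2%). There was 1 without wt replicate 1 (4.79%), 1 without wt replicate 2 (6.42%) and 7 without wt replicate 3 (8.9%). With scaling by total counts there were 0. In none of these fits did a member pass with adjusted p, where between 0.0 and 0.457% of all genes did (0.208% without ko replicate 1).

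**Figure D1:**
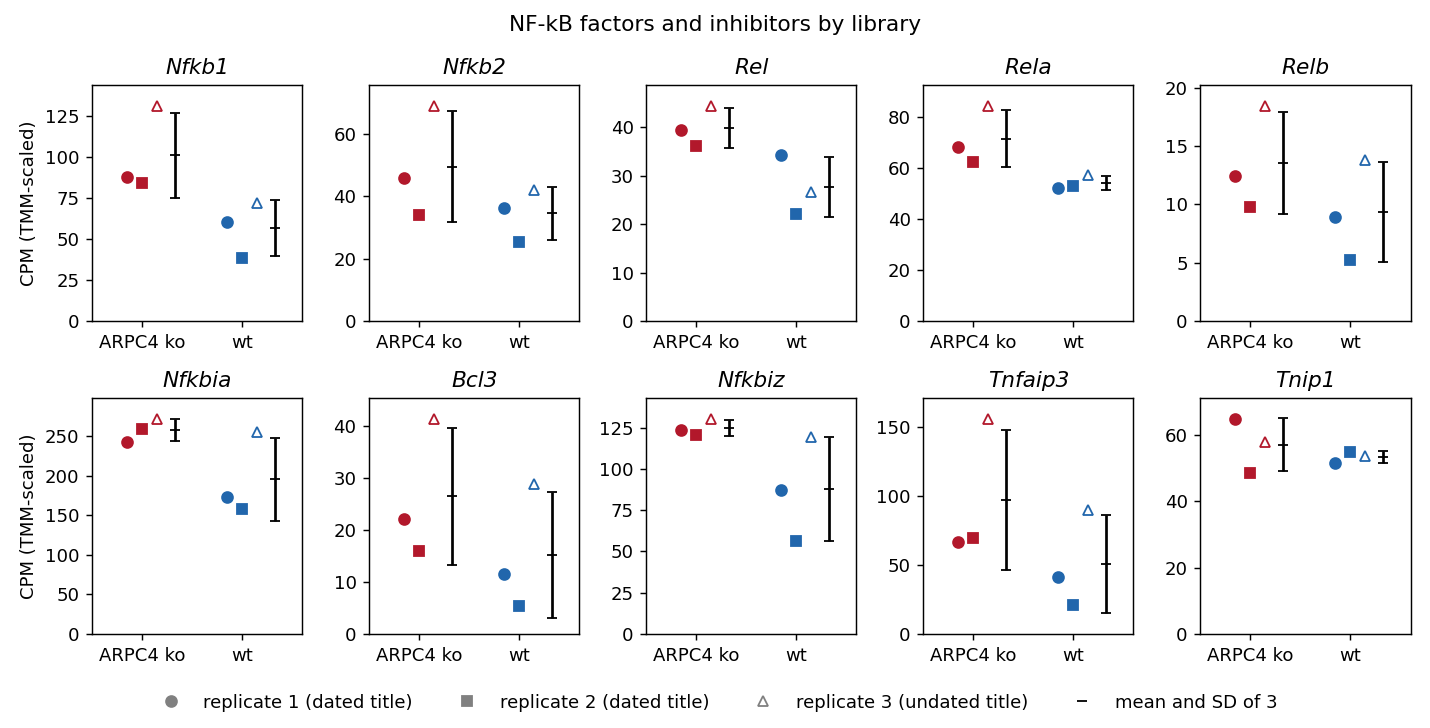
Level of each member in CPM (TMM-scaled, linear axis from 0) in the 3 ARPC4 ko and 3 wt libraries, with filled circles and squares for dated replicates 1 and 2, open triangles for undated replicate 3, and bars for the mean and SD of 3 libraries. The undated ko library was the highest of all 6 for 9 of the 10 members, and wt replicate 2 the lowest for 8.

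Among the factors, Nfkb1 had the largest difference. Nfkb1 (ENSMUSG00000028163, chromosome 3, 135584655 to 135691547, minus strand, mm10) encodes a precursor that is processed to a DNA-binding subunit without an activation domain of its own. It was measured at 87.7, 84.3 and 130.9 CPM in ko replicates 1 to 3, against 60.4, 38.4 and 72.2 CPM in wt replicates 1 to 3. The groups did not overlap, with the highest value in ko replicate 3 and the lowest in wt replicate 2. The group means were 101 ± 26.0 CPM in ko and 57.0 ± 17.1 CPM in wt (SD, n = 3 each), a 1.77-fold difference (log2 fold change 0.82, SE 0.27, 95% interval 0.17 to 1.48). Its unadjusted p was 0.0206 and its adjusted p 0.27 (edgeR, Benjamini-Hochberg). The difference was of similar size in the dated libraries (0.78) and in the undated pair (0.86, 1 library each, no test). With the presence of a date as a covariate Nfkb1 passed (0.82, SE 0.16, adjusted p = 0.0413 by edgeR), in a fit that called 5.17% of all genes, and it was the only member that did.

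Rela and Rel, the factors with activation domains that carry most canonical activity, showed smaller differences, and Rela scattered little in wt. Rela (ENSMUSG00000024927, chromosome 19, 5637483 to 5648130, plus strand) lay at 68.2, 62.6 and 84.3 CPM in ko and at 52.3, 53.1 and 57.2 CPM in wt. The wt libraries were within 1.09-fold of each other, and all lay below the ko libraries. The means were 71.7 ± 11.3 CPM in ko and 54.2 ± 2.59 CPM in wt (SD, n = 3 each; log2 fold change 0.40, SE 0.14; edgeR adjusted p = 0.285), with 0.28 in the dated libraries and 0.56 in the undated pair. Rel (ENSMUSG00000020275, chromosome 11, 23736847 to 23770970, minus strand), best known from lymphoid cells, lay at 39.4, 36.1 and 44.3 CPM in ko and at 34.3, 22.1 and 26.6 CPM in wt. The lowest ko library was close to the highest wt library, wt replicate 1. The log2 fold change of Rel was 0.53 (SE 0.18, edgeR adjusted p = 0.288), with 0.40 in the dated libraries and 0.74 in the undated pair.

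The pair of the non-canonical branch did not separate by genotype. Nfkb2 (ENSMUSG00000025225, chromosome 19, 46304320 to 46312385, plus strand) lay at 45.8, 33.9 and 68.7 CPM in ko and at 36.1, 25.4 and 42.1 CPM in wt. The lowest ko library, replicate 2, fell below wt replicates 1 and 3. Relb (ENSMUSG00000002983, chromosome 7, 19606217 to 19629438, minus strand), the least abundant member, lay at 12.4, 9.82 and 18.4 CPM in ko and at 8.89, 5.27 and 13.8 CPM in wt, again with overlapping groups. Their log2 fold changes were 0.52 (SE 0.29) and 0.54 (SE 0.38), with edgeR adjusted p of 0.534 and 0.642. For Nfkb2 the dated libraries gave 0.35 and the undated pair 0.71, and for Relb 0.62 and 0.41. Exons of Nfkb2 and of Psd, on the opposite strand, overlap, and whether the counting used strand is not known. Psd itself had between 7 and 21 counts per library, where Nfkb2 had 477 to 1310. How many Nfkb2 reads were gained or lost through the overlap is not known. For Nfkb2 the interval of the difference, -0.18 to 1.22, includes no change as well as the size estimated for Nfkb1, so the data do not show that the genotypes are alike.

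Nfkbia and Nfkbiz shared a pattern in which the ko libraries lay close together and the wt libraries spread out below them. Nfkbia (ENSMUSG00000021025, chromosome 12, 55489410 to 55492647, minus strand), the inhibitor of Rela dimers, lay at 243, 259 and 271 CPM in ko and at 173, 158 and 255 CPM in wt. The ko libraries were within 1.12-fold of each other, and wt replicate 3 lay between ko replicates 1 and 2. Nfkbiz (ENSMUSG00000035356, chromosome 16, 55811375 to 55838899, minus strand), the nuclear cofactor of inflammatory genes in keratinocytes, lay at 123.8, 120.4 and 130.1 CPM in ko and at 87.3, 56.3 and 119.7 CPM in wt. All ko libraries of Nfkbiz were above the wt libraries, but the margin over wt replicate 3 was under 1 CPM. The log2 fold changes were 0.40 for Nfkbia (SE 0.20) and 0.51 for Nfkbiz (SE 0.26), with edgeR adjusted p of 0.468 and 0.475. In the dated libraries they were 0.57 and 0.74, and in the undated pair 0.09 and 0.12. Of all pairs of members these had the most similar pattern over the 6 libraries, with a root mean square difference of 0.173 in centred log2 CPM. Among 9946 genes of at least 5 CPM, however, Nfkbia ranked only 38 in likeness to Nfkbiz, so the pattern was not particular to this pair.

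Tnfaip3 and Bcl3 varied most, and their large fitted differences went with large errors. Tnfaip3 (ENSMUSG00000019850, chromosome 10, 19000910 to 19015657, minus strand), a ubiquitin-editing enzyme that shuts off canonical signalling, lay at 66.6, 69.6 and 155.8 CPM in ko and at 41.1, 21.1 and 90.0 CPM in wt. Both undated libraries lay above every dated library of either genotype. Bcl3 (ENSMUSG00000053175, chromosome 7, 19808462 to 19822770, minus strand), an IkB protein that binds the Nfkb1 and Nfkb2 subunits in the nucleus, lay at 22.2, 16.0 and 41.3 CPM in ko and at 11.5, 5.32 and 28.8 CPM in wt. Here too the undated libraries were the highest of the 6. Exons of Bcl3 overlap those of the antisense gene Gm16175 on the opposite strand, which had 0 counts in every library. From the lowest to the highest library Tnfaip3 spanned 7.4-fold and Bcl3 7.76-fold, against 1.33 to 3.5-fold for the other members. The log2 fold changes were 0.94 for Tnfaip3 (SE 0.57, interval -0.41 to 2.29) and 0.80 for Bcl3 (SE 0.62, interval -0.68 to 2.27), with edgeR adjusted p of 0.564 and 0.678. Within the dated libraries they were 1.11 and 1.15, and in the undated pair 0.79 and 0.52. Leaving out ko replicate 3 lowered these values to 0.39 and 0.28, and leaving out wt replicate 3 raised them to 1.65 and 1.64.

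Tnip1, the partner of Tnfaip3 that binds ubiquitin chains, was nearly flat. Tnip1 (ENSMUSG00000020400, chromosome 11, 54910785 to 54962917, minus strand) lay at 64.7, 48.7 and 57.8 CPM in ko and at 51.6, 54.9 and 53.5 CPM in wt. The ko libraries reached both above and below the wt libraries. Its log2 fold change was 0.10 (SE 0.13, edgeR adjusted p = 0.84), and the 95% interval of -0.21 to 0.41 leaves out a rise of the size estimated for Nfkb1. The dated libraries gave 0.06 and the undated pair 0.11. Leaving out ko replicate 1 brought the value from all libraries to -0.0032.

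**Figure D2:**
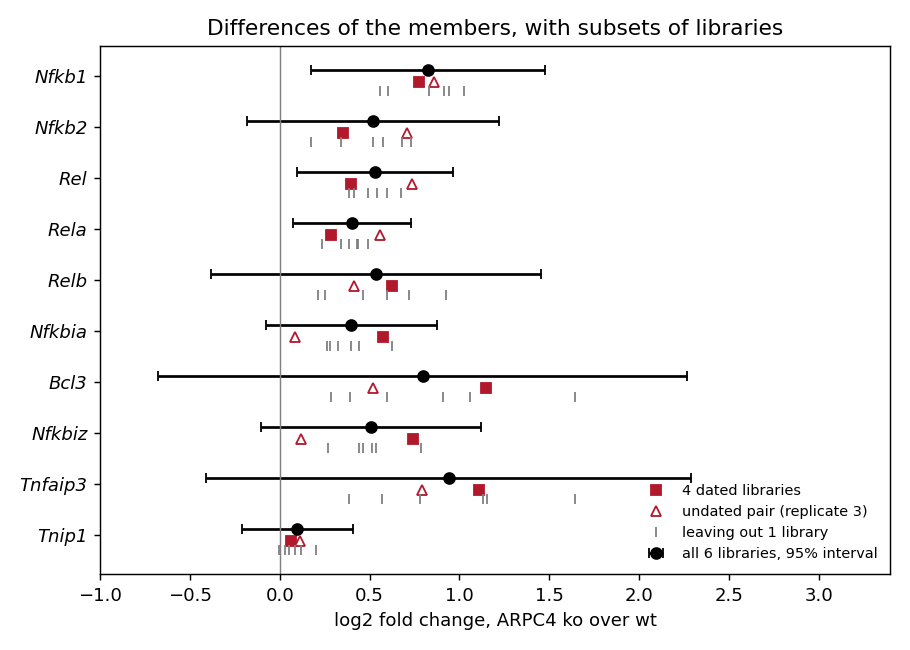
Log2 fold change (ARPC4 ko over wt) of each member, with the edgeR estimate and 95% interval from all 6 libraries (black), the estimate from the 4 dated libraries (red squares), the ratio of the undated pair (open triangles) and the estimates leaving out 1 library (grey ticks). Every dated and undated value lay above 0, and the intervals of Tnfaip3 and Bcl3 were the widest.

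The members also shared an order of libraries within each genotype. The undated ko library was the highest ko library for 9 of the 10 members (38.1% of all genes tested) and the undated wt library the highest wt library for 8 (42.8%). Replicate 2 was the lowest wt library for 8 members (41.3%) and the lowest ko library for 8 (28.4%). Both undated libraries were high in Xist, as was ko replicate 1, and replicate 2 of both genotypes was low in it. Among the wt libraries sex and date therefore cannot be told apart. Genes of basal keratinocytes were likewise highest in ko replicate 3 and lowest in wt replicate 2. Trp63, the transcription factor of the basal layer, lay at 179, 208 and 417 CPM in ko and at 180, 88.3 and 308 CPM in wt. Krt5 lay at 1292, 1677 and 5443 CPM in ko and at 3424, 846 and 4301 CPM in wt, and of the ko libraries it was lowest in replicate 1. With the mean of Krt5, Krt14 and Trp63 as a covariate, an alternative chosen after the values were seen, the fitted differences of the members stayed between 0.11 and 0.77, and Nfkb1 passed (0.72, edgeR adjusted p = 0.0142) in a fit that called 5.43% of all genes. That fit gave 7 members an unadjusted p under 0.05, where 11.8% of all genes were higher at that level. The part of the basal genes in the result was not tested further. In bulk epidermis a different share of cells and a different amount of RNA per cell cannot be told apart.

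**Figure D3:**
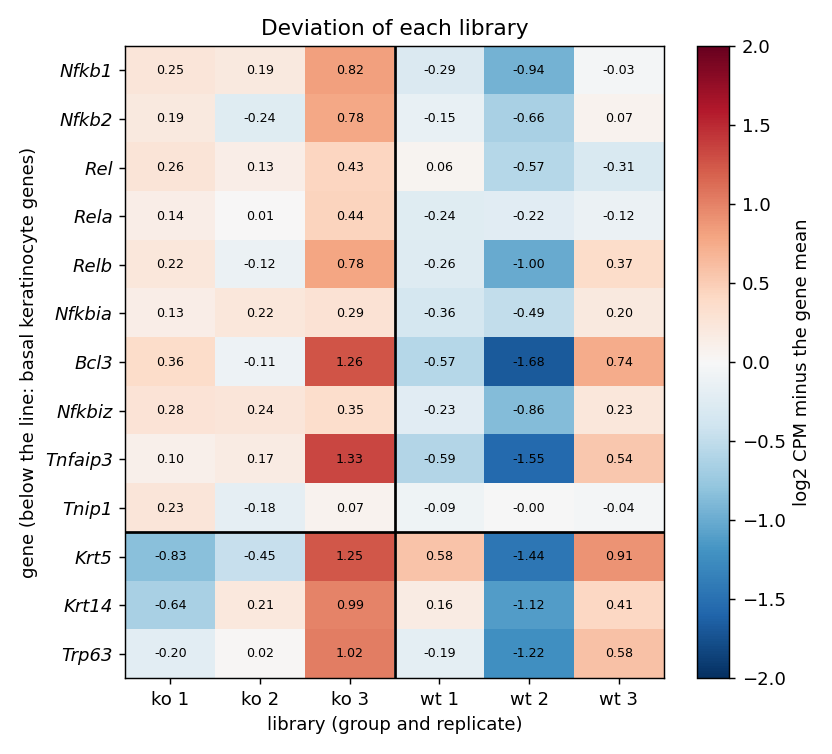
Deviation of each library from the gene's own mean in log2 CPM (colour and printed number) for the 10 members and, below the line, 3 basal keratinocyte genes, with ARPC4 ko libraries left of wt libraries. The ko 3 column is high and the wt 2 column low for most members and for all 3 basal genes.

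The direction of the difference was the same in the dated and the undated libraries. All 10 members were higher in ko among the dated libraries and also in the undated pair, which held for 34.3% of all genes tested. Among the dated libraries 0 of the 10 passed edgeR's test, where 1.64% of all genes did, and 5 had an unadjusted p under 0.05, where 8.65% of all genes were higher at that level. With the date covariate 9 of the 10 had an unadjusted p under 0.05, against 12% of all genes that were higher at that level, and Tnip1 was the exception.  The undated pair has no replicate and gives no test. The dated libraries were not matched by sex. Xist was high in ko replicate 1 (543 CPM) and low in ko replicate 2 (0.177 CPM). It was also low in wt replicates 1 and 2 (0.22 and 0.425 CPM). In the undated pair it was high in ko and in wt (508 and 579 CPM). The part of sex in these differences was not tested.

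Marker genes of other cells also differed between the libraries, and their part in the members' levels was not tested. All 13 myeloid markers, Langerhans cells included, had fitted values above 0, with 0 passing. Their summed level was 512 to 1060 CPM in ko and 401 to 911 CPM in wt, so the groups overlapped. The 7 fibroblast markers summed to 903 to 1920 CPM in ko and 166 to 427 CPM in wt. In ko replicate 3 that sum was mostly Postn (1757 CPM), and Col1a1 lay at 24.4 CPM there against 32.4 CPM in wt replicate 3, so the groups overlapped for Col1a1 and likewise for Col1a2. The 7 endothelial markers summed to 12.4 to 22.8 CPM in ko and 5.03 to 5.9 CPM in wt, without overlap. The 6 of them that were tested all had log2 fold changes above 0 (1.05 to 3.04), with 0 passing. Each of these 6 had groups without overlap and an unadjusted edgeR p under 0.05. The 5 melanocyte markers summed to 76.9 to 126 CPM in ko and 60.7 to 71.4 CPM in wt. All 5 had values above 0, with 0 passing and 3 at an unadjusted edgeR p under 0.05. T cell markers summed to 30.8 to 56.9 CPM in ko and 36.1 to 46.1 CPM in wt. The 7 neutrophil markers summed to at most 1.52 CPM in ko and 0.317 CPM in wt, and Ly6g had 0 counts in all libraries.

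Per kilobase of exon the order of the members was stable at its ends. Nfkbia stood first in every library, at 160 ± 8.78 RPKM (CPM divided by the exon length in kilobases) in ko and 121 ± 32.6 RPKM in wt (SD, n = 3 each), far above the others. Nfkbiz (24.9 ± 0.984 in ko, 17.5 ± 6.32 in wt) and Rela (23.3 ± 3.67 in ko, 17.6 ± 0.844 in wt) followed and did not differ beyond their spread. Tnip1 came next at 16.1 ± 2.27 in ko and 15.1 ± 0.475 in wt. Tnfaip3, Nfkb2, Bcl3 and Nfkb1 lay between 8.37 and 13.5 in ko and between 4.72 and 7.53 in wt, with overlapping spreads. Rel (5.35 in ko, 3.71 in wt) and Relb (3.49 in ko, 2.4 in wt) came last by group mean. Relb stood last in every library, but Rel stood at place 7 in wt replicate 2. The place of Nfkb1 depended on the length used, since its joined exons cover 12061 bases and its longest transcript 4149. With the longest transcript it stood at 24.3 in ko and 13.7 in wt, at place 4 in ko and 5 in wt.

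The genes most like each member over the 6 libraries were ranked by the root mean square difference of centred log2 CPM among 9946 genes of at least 5 CPM. The closest to Nfkb1 were the kinase Jak2 (0.0837), the adaptor Traf3 (0.109) and the hyaluronan receptor Cd44 (0.11). The closest to Nfkbia were Tbl1xr1 (0.0417), the ubiquitin ligase Birc3 (0.0615), itself a known NF-kB target, and Yars2 (0.0767). For Rela they were Stat3 (0.0646), Smad1 (0.0653) and Shq1 (0.0668). Bcl3 had Tnfaip3 as its closest gene (0.185), and Bcl3 was second for Tnfaip3 after Tns4 (0.182) and before Cdh3 (0.209). After Tnfaip3, Bcl3 had Dtx3l (0.245) and Marveld1 (0.264). For Nfkbiz they were Zfp280c, P2rx7 and Meis1, for Nfkb2 Sema4c, Slc1a5 and Irf9, and for Rel Utp20, Mst1r and Cad. For Relb they were Specc1, Arl8a and Zdhhc18, and for Tnip1 Dhx37, Ptpn23 and 6030458C11Rik. These are descriptions over 6 libraries, and genes in the same libraries share any effect of genotype, date, sex and depth.

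The other genes of the pathway were read from lists by role, 126 genes in all, of which 102 were tested. Of all 13704 genes tested 0.219% passed, 7.98% were higher in ko at an unadjusted p under 0.05, and the median log2 fold change was 0.02. Among 15 tested IkB proteins and regulators beyond the members, 0 passed in either direction, 1 was higher at an unadjusted p under 0.05, and the median log2 fold change was 0.06. That gene was Zc3h12a, an RNase that degrades inflammatory transcripts, at 66.3 ± 10 CPM in ko and 44.1 ± 14.3 CPM in wt (SD, n = 3 each; 0.59, SE 0.24; edgeR adjusted p = 0.37). Its log2 fold change was 0.76 in the dated libraries and 0.32 in the undated pair. Tnip2 (0.28), Pdlim2 (-0.57) and Commd1 (-0.16) were the next by p, with adjusted p between 0.455 and 0.733.

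Of 35 kinases, adaptors and ubiquitin proteins, 0 passed. With unadjusted p under 0.05, 5 were higher in ko (7.98% of all genes tested) and 0 lower, and the median was 0.09. Irak3, a brake on signalling from interleukin and Toll-like receptors, had the smallest p. It lay at 43.2, 44.7 and 42.9 CPM in ko and at 22.3, 27.9 and 30.4 CPM in wt. The ko libraries were nearly equal and all above wt (log2 fold change 0.70, SE 0.14; edgeR adjusted p = 0.101), with 0.78 in the dated libraries and 0.49 in the undated pair. Traf3, which keeps the non-canonical kinase Map3k14 low, lay at 34.5 ± 6.32 CPM in ko and 19.1 ± 4.63 CPM in wt (SD, n = 3 each; 0.85, SE 0.22; edgeR adjusted p = 0.176), with 0.80 in the dated libraries and 0.88 in the undated pair. Map3k14 itself lay at 16.9, 10.9 and 28.3 CPM in ko and at 8.98, 7.13 and 13.4 CPM in wt, with overlapping groups (0.92, SE 0.39; edgeR adjusted p = 0.38), and was chosen for mention after its values were seen. Irak4 (0.48) and Tbk1 (0.32) followed, with adjusted p of 0.19 and 0.297. DESeq2 called Irak3 and Traf3, as did edgeR with the date covariate. Neither passed in the dated libraries alone (edgeR adjusted p of 0.0692 for Irak3 and 0.107 for Traf3).

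Of 26 tested receptors and ligands, 0 passed. With unadjusted p under 0.05, 9 were higher in ko (7.98% of all genes tested) and 1 was lower, and the median was 0.29. The 4 with the smallest p all belonged to the interleukin-1 family. The alarmin Il33 lay at 15.9, 41.8 and 52.3 CPM in ko and at 4.14, 1.44 and 7.48 CPM in wt (log2 fold change 3.06, SE 0.65; edgeR adjusted p = 0.115), with 3.31 in the dated libraries and 2.81 in the undated pair. It passed in DESeq2 (adjusted p = 3.88e-05) and in edgeR with the date covariate (0.0333) or the basal gene covariate (0.00655). DESeq2 called 4.25% of all genes, and edgeR with the date and the basal gene covariate 5.17 and 5.43%. Il33 did not pass in the dated libraries alone (edgeR adjusted p = 0.142) or in limma-voom, which called 0.0% of all genes. Il1a (0.65), Il1f9 (0.75) and the receptor Il1rl2 (0.58) had adjusted p between 0.169 and 0.253. Il17a had 0 counts in every library, which allows up to 0.132 to 0.177 CPM per library (3 counts, counting error only).

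Of 21 tested target genes outside the 10 members, 0 passed. With unadjusted p under 0.05, 8 were higher in ko (7.98% of all genes tested) and 0 lower, and the median was 0.49. Ier3, an early response gene, lay at 50.6, 69.8 and 55.0 CPM in ko and at 35.4, 31.2 and 35.2 CPM in wt. The groups did not overlap (log2 fold change 0.78, SE 0.15; edgeR adjusted p = 0.0946), with 0.83 in the dated libraries and 0.65 in the undated pair. It passed in DESeq2 (adjusted p = 0.00327) and in edgeR with the date covariate (0.0318) or the basal gene covariate (0.0248). In the dated libraries alone Ier3 did not pass (edgeR adjusted p = 0.0769). The growth factor Csf1 lay at 19.2 ± 2.77 CPM in ko and 11.8 ± 1.23 CPM in wt (SD, n = 3 each; 0.71, edgeR adjusted p = 0.136), with 0.68 in the dated libraries and 0.70 in the undated pair. Csf1 passed in DESeq2 (adjusted p = 0.0271) and in edgeR with the date covariate (0.048) or the basal gene covariate (0.0246). In the dated libraries alone Csf1 did not pass (edgeR adjusted p = 0.165). The caspase inhibitor Cflar had a value of 0.49 (adjusted p = 0.184). The adhesion molecule Vcam1, known from endothelium, had a value of 2.14 (adjusted p = 0.123, and 0.0442 with the date covariate) but a level of at most 0.839 CPM in ko and 0.272 CPM in wt. In the dated libraries alone Vcam1 did not pass (edgeR adjusted p = 0.0864).

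Of 16 genes known to need Nfkbiz for induction, 9 were tested, all 9 had values above 0 and 2 rose past the threshold, the antimicrobial partners S100a8 and S100a9 (edgeR adjusted p = 0.0407 for both). S100a9 lay at 46.9, 156 and 155 CPM in ko and at 3.87, 4.73 and 4.08 CPM in wt, and S100a8 at 32, 107 and 121 CPM in ko and at 1.58, 2.55 and 2.58 CPM in wt. Both were lowest of the ko libraries in replicate 1 and still far above wt. In the dated libraries alone their log2 fold changes were 4.53 for S100a9 and 5.06 for S100a8, and neither passed there (edgeR adjusted p of 0.117 and 0.115). The undated pair gave 5.24 for S100a9 and 5.55 for S100a8. The median log2 fold change of the list was 1.94. Among all genes tested 0.219% passed, 53.1% had values above 0 and the median was 0.02. The list overlaps the other lists in several genes and its S100 genes were known to differ when it was drawn up, so its count is not independent evidence. Il1f9 (0.75) and the defensin Defb14 (1.94) were next by p, with adjusted p of 0.179 and 0.194. Without wt replicate 1, 2 or 3 or ko replicate 2 edgeR called 0 of these genes and 0 genes in all, with 1229, 1408, 2350 and 1252 genes at an unadjusted p under 0.05.

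**Figure D4:**
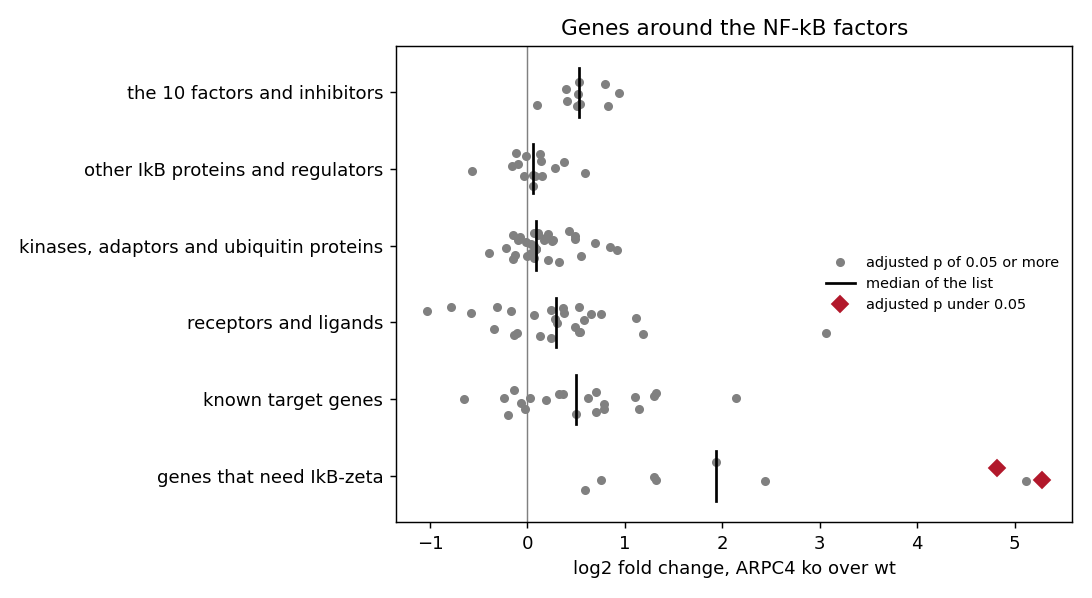
Log2 fold change (ARPC4 ko over wt) of every tested gene in the 6 lists (points), with the list median (black bar) and the genes past an adjusted p of 0.05 (red diamonds). The median of the 10 factors and inhibitors was 0.52, that of the remaining IkB proteins and regulators 0.06, and both red diamonds are S100 genes.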

How the data were processed

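Strand-specific mRNA libraries (6) were read from a single end over 51 bp, per the labels' protocols. The authors deposited raw counts of reads per Ensembl gene. Named in the submitters' processing notes are mm10, HTSeq, Bowtie 1.1 and TopHat2 2.0.12. The strand setting and annotation used in counting: not given in the sources used here. Entries not assigned to a gene (33.3 to 41.6% of the total listed per library) stayed out of library sizes and tests.

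Groups came from the genotype label. Replicates 1 and 2 follow the numerals in the titles, and 3 names the library without one. Replicates differed by more than sampling noise (chi-square over its degrees of freedom, 26.3 to 114). Symbols came from the reference gene names (40254 identifiers matched), and coordinates and exon lengths from GENCODE M21 on GRCm38, the assembly of mm10. edgeR 4.0.16 in R 4.3.3 was used with filterByExpr, TMM, glmQLFit (robust) and glmQLFTest, with genotype as the only factor and Benjamini-Hochberg adjustment over 13704 genes at a threshold of 0.05. SE values were derived from the fold change and F. CPM use TMM-scaled library sizes. Patterns were compared on log2 CPM (prior count 2). Alternatives were DESeq2 1.42.0, limma-voom (limma 3.58.1), other scalings and filters, a replicate block, the date covariate, the dated libraries alone and leaving out each library. The members and lists were chosen with earlier results of these data known. Named genes are the members, the 3 genes most like each, Arpc4, and from each list the 4 with the smallest p and any past the threshold in the edgeR fit with genotype alone. Others, Il17a, Il1f6, Plau and Ptgs2 among them, were named with their values known, or are markers. The fits were tested on simulated data.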

Additional observations from a re-analysis of the deposited data

How the results depend on the processing

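Over 17 alternatives each, 166 of 170 fitted differences of the members kept their direction and their side of the threshold. Nfkb1 passed with the replicate block (0.84, adjusted p = 0.0421), with the date covariate (0.82) and with the basal gene covariate (0.72), and Tnip1 turned to -0.0032 without ko replicate 1 (-0.0032 to 0.20 over the left-out libraries). With the replicate block 1 member, 7 list genes and 354 genes in all passed, with the date covariate 1, 10 and 709, and with the basal gene covariate 1, 11 and 744, against 0, 2 and 30 in the reported fit. Whether the replicate numbers pair the libraries is not known. The deviations of same-numbered libraries correlated at -0.19, 0.47 and 0.67, and those of ko replicate 1 and wt replicate 2 at 0.51. With 3 libraries per group the deviations of a gene sum to 0, so these values cannot decide it. The list genes called with the block were Map3k14 (adjusted p = 0.049), Il33 (0.0473), Il1f6 (0.041), Lcn2 (0.0208), Il19 (0.00161), S100a8 and S100a9. Plau (0.0432) and Ptgs2 (0.0485) passed with the basal gene covariate. DESeq2 called 10 list genes and 650 genes, the dated libraries 1 and 227, and limma-voom 0 and 0 (1735 at an unadjusted p under 0.05). Without a filter on low counts 57 genes passed, and with 1 CPM in 3 libraries 18. At a threshold of 0.01, 0 list genes and 0 genes passed. Leaving out 1 library gave 0 members, 0 to 2 list genes and 0 to 64 genes. The cause of these changes was not tested. Leaving out a library moved Tnfaip3 between 0.39 and 1.65 and Bcl3 between 0.28 and 1.64. Depth limits genes of a few counts per library more than the members, which had 99 counts or more.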

Other observations

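Several inflammatory genes around the NF-kB factors stayed below the filter on low counts. The genes named here were chosen after their values were seen. The chemokine gene Cxcl3 had 6, 3 and 19 counts in ko replicates 1 to 3, against 0 counts in each wt library. Its mean level in ko was 0.491 ± 0.442 CPM (SD, n = 3). That was 3.44-fold the mean of the limits that 0 counts allow in the wt libraries (3 counts per library). The ko mean rests largely on replicate 3 (0.997 CPM), and replicate 2 (0.177 CPM) had no more counts than the limit, so the ratio is not a lower bound. DESeq2 called Cxcl3 (adjusted p = 0.0174). Tnip3, a relative of Tnip1, had 7, 2 and 36 counts in ko, against 1, 1 and 2 counts in wt, so most of its reads came from the undated ko library.

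Among genes that need Nfkbiz, the iron-binding protein gene Lcn2 lay at 1.79, 2.66 and 7.40 CPM in ko, against 0.264, 0.585 and 1.31 CPM in wt (edgeR adjusted p = 0.221). Lcn2 passed with the date covariate (adjusted p = 0.0145), the basal gene covariate (0.0466) and in DESeq2 (0.0235). In the dated libraries alone Lcn2 did not pass (edgeR adjusted p = 0.069). The cytokine gene Il19 lay at 2.58, 1.06 and 27.7 CPM in ko, against 0.132, 0 and 0.725 CPM in wt (edgeR adjusted p = 0.232). Il19 passed with the date covariate (adjusted p = 0.00402) and the basal gene covariate (0.0159). In the dated libraries alone Il19 did not pass (edgeR adjusted p = 0.0564). In both genes the groups did not overlap, and the undated ko library was the highest. The chemokine Ccl20, listed both as a target and as needing Nfkbiz, lay at 37.4, 53.1 and 51.0 CPM in ko, against 11.5, 9.36 and 36.6 CPM in wt. It passed among the dated libraries alone (log2 fold change 2.09, edgeR adjusted p = 0.0165), where the wt level was lower than in the undated wt library. The adhesion gene Icam1, a classical NF-kB target, followed the libraries and not the genotype, at 8.70, 8.93 and 63.0 CPM in ko and 27.5, 2.61 and 51.9 CPM in wt.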
